A study of Mus musculus with 6 samples.

Results

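The Abcc family of transporters, subfamily C of the ATP-binding cassette (ABC) proteins, was examined in mouse back skin with and without caNrf2, a version of the transcription factor Nrf2 that is always active. Its members were taken as the probe sets whose platform annotation gave exactly 1 gene symbol, that symbol being Abcc1, Abcc2, Abcc3, Abcc4, Abcc5, Abcc6, Abcc8, Abcc9, Abcc10 or Abcc12. This gave 10 genes with 25 probe sets, of 18193 genes and 45037 probe sets tested in all. The 6 mice were female littermates on a mixed FVB/N/C57BL/6 background, killed at postnatal day 2.5, and RNA of their whole back skin was put on 1 three-prime expression array per mouse. The 3 caNrf2 mice were labelled K5cre-caNrf2 (tg/tg), in which the keratin 5 promoter drives the Cre recombinase that goes with the active Nrf2. The 3 control mice were labelled K5cre-wt (tg/wt). The sample descriptions also call both groups weak (wildtype_weak and transgene_weak), and what this refers to is not given. The keratin 5 promoter is active in basal keratinocytes, while the arrays read RNA of the whole skin, so a difference within keratinocytes alone is diluted by RNA of the other cells. In whole skin, fewer cells of a type and less RNA per cell cannot be told apart.

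Abcc proteins use ATP to move molecules across membranes, and most of them export organic anions out of cells. Conjugates with glutathione, glucuronic acid or sulfate, made by the detoxification enzymes, are typical cargo, so these exporters act as the last step of detoxification. Several members are known targets of Nrf2 in liver and other tissues. The family also holds members with other work: Abcc8 and Abcc9 are the sulfonylurea receptors that regulate ATP-sensitive potassium channels, and Abcc6 is needed for the ATP release that restrains mineralisation of soft tissue. Nrf2 binds DNA together with a small Maf protein at the antioxidant response element, whose core is TGACNNNGC.

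That core was searched on both strands in windows of 300 bases, 250 before and 50 after each annotated start, from RefSeq on build GRCm38.p6. The table gave 8 windows for 6 of the 10 members (Abcc2, Abcc4, Abcc5, Abcc9, Abcc10 and Abcc12). No window was found for Abcc1, Abcc3, Abcc6 and Abcc8, so these 4 genes were not searched. A match stood in 5 of the 8 windows, those of Abcc2, Abcc4 and Abcc10, against 12.39% of all 32851 windows in the table. Both windows of Abcc4 are shown because Abcc4 was 1 of the 2 members whose rise passed the test, with the match in capitals and each sequence 5′ to 3′ on the gene's strand. The first lies at chr14:118706170-118706469 and the second, at a start further inside the gene, at chr14:118676882-118677181, both on the minus strand. 
Abcc4 first start: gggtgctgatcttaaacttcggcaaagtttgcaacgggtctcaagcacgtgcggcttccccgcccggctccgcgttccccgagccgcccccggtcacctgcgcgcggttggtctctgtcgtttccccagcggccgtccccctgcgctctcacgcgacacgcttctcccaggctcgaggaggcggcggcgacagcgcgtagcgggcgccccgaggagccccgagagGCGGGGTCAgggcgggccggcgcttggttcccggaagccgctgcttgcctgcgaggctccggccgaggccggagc
Abcc4 second start: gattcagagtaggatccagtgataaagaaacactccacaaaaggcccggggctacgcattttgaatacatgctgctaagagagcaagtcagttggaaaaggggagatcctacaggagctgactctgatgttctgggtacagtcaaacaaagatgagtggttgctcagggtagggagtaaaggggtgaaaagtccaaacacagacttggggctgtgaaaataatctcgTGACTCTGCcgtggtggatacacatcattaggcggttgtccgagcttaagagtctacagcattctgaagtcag
The match of the first start, GCGGGGTCA, begins 25 bases upstream of the start and carries the core on the opposite strand. That of the second start, TGACTCTGC, begins 23 bases upstream and lies on the gene's strand. Shorter stretches of 2 members that were not called are given for comparison, at chr19:43782200-43782228 on the plus strand for Abcc2 and at chr17:46328208-46328236 on the minus strand for Abcc10. 
Abcc2: ctcactgggaTGACATAGCattcatctag
Abcc10 first start: cgcagcacccTGACCTGGCagcgcgtcct
These matches begin 98 and 203 bases upstream of their starts. Abcc2 and Abcc10 held the core in these windows and were not called in skin, where Abcc2 was very dim (percentile 3.5 of level). The matches are letters in a window, not binding measured here. If the core goes with a rise was not tested.

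The label of the tissue was checked first. Krt5 and Krt14, which mark basal keratinocytes, were bright and near equal, with log2 differences of 0.03 and 0.03, and Krt10 of the suprabasal layers differed by 0.01. Nfe2l2, which encodes Nrf2, differed by 0.41 ± 0.07 (log2, SE; control 9.39 ± 0.03, caNrf2 9.81 ± 0.09, mean ± SD, n = 3). The groups did not overlap, yet this stayed above the threshold (adjusted p = 0.0539, limma), and it is not known here if the transgene is among what its probes bind. The hybridisation controls, which are added to every array in the same amount, averaged 0.17 higher (log2) on the caNrf2 arrays, without overlap of the groups (exact two-sided permutation p = 0.1, a floor set by having 3 arrays per group). The poly-A controls, a second set of array controls, differed by -0.0007, with 8.93 to 9.16 on control and 8.89 to 9.25 on caNrf2 arrays. The part of the shift of the hybridisation controls in the differences of the transporters was not tested.

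Of the 10 Abcc genes, 2 rose in caNrf2 skin, Abcc3 and Abcc4, and none fell (limma, Benjamini-Hochberg adjusted p under 0.05 over all 18193 genes). Over all genes 0.346% rose and 0.0275% fell, the latter being 5 genes, a number that ran from 1 (without control array 1 or caNrf2 array 2) to 18 (without caNrf2 array 1) when single arrays were left out. The other 8 genes did not pass. Among these Abcc1 stood apart, since its groups did not overlap. The 10 members had a median log2 difference of 0.02, beside -0.01 for all genes. An unadjusted p under 0.05 was reached by 3 of the 10 members and by 8.09% of all genes. The 7 members other than Abcc1, Abcc3 and Abcc4 had log2 differences between -0.15 and 0.04.

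**Figure D1:**
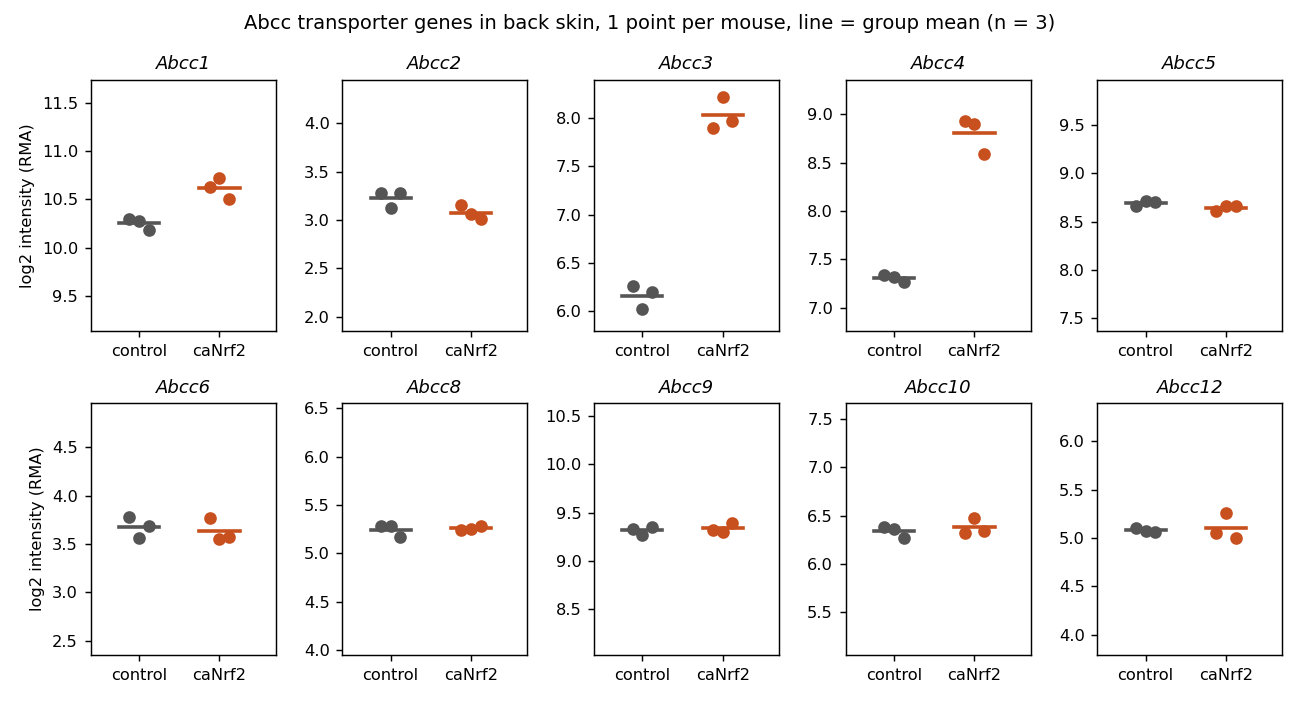
Log2 RMA intensity (vertical axis) of the probe set used for each of the 10 Abcc genes, with 1 point per mouse and a line at each group mean (control grey, caNrf2 orange, n = 3 each). Every panel spans the same range of log2 units, placed at its own level. The groups are wide apart for Abcc3 and Abcc4 and closer, but without overlap, for Abcc1.

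Abcc3 encodes an exporter of the basolateral membrane that carries glucuronides and bile acids. Its only probe set read 76.9, 65.2 and 73.5 intensity units on control arrays 1 to 3, and 238.2, 297.5 and 251.1 on caNrf2 arrays 1 to 3. The lowest caNrf2 value was far above the highest control value. On the log2 scale it went from 6.16 ± 0.12 to 8.03 ± 0.17 (mean ± SD, n = 3), a difference of 1.86 ± 0.10 (SE) or 3.64-fold (95% interval 3.12 to 4.25, adjusted p = 6.92e-06). The control mean lay below the 6.34 of the median probe set, a range where RMA compresses folds. With 16 added to every intensity before the logarithm the difference was 1.66.

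Abcc4 encodes an exporter of cyclic nucleotides, urate and prostaglandins. Its only probe set read 162, 159.8 and 154 units in control skin, values that lay close together. In caNrf2 skin it read 488.4, 476.3 and 385.6, so the third caNrf2 mouse was the lowest of its group and still clear of every control. The log2 level was 7.31 ± 0.04 in control and 8.81 ± 0.19 in caNrf2 skin (mean ± SD, n = 3). The difference was 1.50 ± 0.10 (SE) or 2.82-fold (95% interval 2.44 to 3.27, adjusted p = 2.61e-05). Which of the Abcc4 transcripts this probe set reads was not analysed here.

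Abcc1 encodes a widely expressed exporter of glutathione conjugates, leukotriene C4 among them, and of oxidised glutathione. Its brighter probe set read 1261, 1237 and 1161 units in control skin and 1587, 1690 and 1456 in caNrf2 skin. The dimmer one read 321.2, 348 and 317.2 against 401.9, 454.5 and 384.7. On both sets the groups were separate, caNrf2 above control, with the second caNrf2 mouse highest and the third lowest. The log2 difference was 0.37 ± 0.08 (SE) on the brighter set, 1.29-fold with a 95% interval of 1.14 to 1.46, and it missed the threshold (adjusted p = 0.143, limma). The other set gave 0.33 ± 0.09 when every probe set was fitted (adjusted p = 0.313, limma). Of the alternatives tried, only a variance that follows intensity brought Abcc1 past the threshold (adjusted p = 0.0427, limma with trend), and over all alternatives the adjusted p ran from 0.0427 to 0.524. Groups without overlap, caNrf2 higher, were seen in 3 of the 10 members and in 6.23% of all genes. The opposite order was seen in none of the members and in 6.88% of all genes.

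The sizes of these 3 differences were set against each other within arrays, a comparison chosen after the values were seen. The log2 difference of Abcc3 exceeded that of Abcc4 by 0.37 and that of Abcc1 by 1.49, and that of Abcc4 exceeded that of Abcc1 by 1.13. In each of the 3 pairs the per-array gaps of the groups did not overlap (exact two-sided permutation p = 0.1, adjusted over the pairs 0.1, the smallest possible). The design cannot take such a test below 0.05. For Abcc3 and Abcc4 the gap on the first caNrf2 array was 0.11 above the control mean and on the highest control array 0.08, so those groups were barely apart.

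Abcc2 encodes the exporter of the apical membrane that carries bilirubin glucuronides into bile. Its probe set was among the dimmest on the array, with 9.68, 8.71 and 9.66 units in control and 8.91, 8.33 and 8.05 in caNrf2 skin. The groups overlapped, and the log2 difference of -0.15 ± 0.08 (SE) did not pass (adjusted p = 0.675, limma). Only 3.5% of probe sets were as dim or dimmer, and at such levels RMA compresses differences.

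Abcc5 encodes an exporter of cyclic nucleotides and was read by 10 probe sets, the most of any member. The brightest gave 403.4, 419 and 416.8 units in control and 390.3, 403.7 and 405 in caNrf2 skin, with overlap. Its log2 difference was -0.05 ± 0.07 (SE), and the 95% interval of 0.87 to 1.07-fold lay below the intervals of Abcc3 and Abcc4. Of the 10 probe sets none passed. The 6 above the median level differed by -0.07 to 0.03. Among the dimmer 4 the values spread further, from -0.28 to 0.11. One of them, 1459782_x_at, was lower without overlap, at 37.7, 38.4 and 36 units against 33.1, 29.9 and 29.2 (log2 difference -0.28 ± 0.08, adjusted p = 0.337, limma). Probe sets with this ending can bind other transcripts, and its drop relative to the brightest Abcc5 set had an exact two-sided permutation p = 0.1, adjusted over 15 such pairs of probe sets 0.857.

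Abcc10 and Abcc12 are less studied relatives of the drug exporters, and Abcc10 is known for resistance to taxanes. Abcc10 read 83.8, 82.5 and 76.9 units in control and 79.9, 89.3 and 81.3 in caNrf2 skin on its brighter probe set. The values were mixed between the groups, with a log2 difference of 0.04 ± 0.08 (SE), and the dimmer set differed by 0.11 ± 0.09. Abcc12 was dim on both of its probe sets, which differed by 0.02 ± 0.08 and -0.15 ± 0.10, in opposite directions. None of these 4 probe sets passed (limma over all probe sets, adjusted p from 0.68 to 0.965).

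Abcc6 encodes the transporter whose loss causes pseudoxanthoma elasticum, a disease with mineralised elastic fibres in skin, and it is made mainly in liver and kidney. Its single probe set read 13.7, 11.8 and 12.9 units in control and 13.6, 11.7 and 11.9 in caNrf2 skin. The groups were interleaved at a level where 10.6% of probe sets were as dim or dimmer, with a log2 difference of -0.04 ± 0.09 (SE). Of 10 listed genes that act with Abcc6 in holding back mineralisation, or in phosphate and pyrophosphate handling, 7 were measured and none passed (limma), with 1 at an unadjusted p under 0.05. Their median was 0.08 and all 7 lay above 0, between 0.02 and 0.20. The smallest p was that of the phosphate carrier Slc20a1, at 0.20 ± 0.08 (adjusted p = 0.574, limma).

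Abcc8 and Abcc9 encode the sulfonylurea receptors, which assemble with the pore subunits Kcnj11 and Kcnj8 and move no cargo of their own. Abcc9 read 641.8, 617.5 and 654.5 units in control and 641.1, 632.6 and 673.7 in caNrf2 skin on the set used, with overlap. Its 3 probe sets gave log2 differences of 0.03, 0.01 and 0.02, with 95% intervals within -0.16 and 0.19. Abcc9 is known in pericytes and muscle cells of vessels, and the 9 markers of these cells had a median of -0.01, none of them past the threshold (limma; 0 at an unadjusted p under 0.05). The smallest p there was that of Pdgfrb at -0.08 ± 0.08. Abcc8 was dim, at 38.8, 38.8 and 36 units in control and 37.8, 38 and 38.9 in caNrf2 skin, a log2 difference of 0.01 ± 0.07. Its second probe set differed by 0.10 ± 0.08. Of the pore subunits, Kcnj11 differed by -0.15 ± 0.09 and Kcnj8 by -0.11 ± 0.12, and neither passed (adjusted p = 0.708 and 0.872, limma; 0 of the 2 at an unadjusted p under 0.05).

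**Figure D2:**
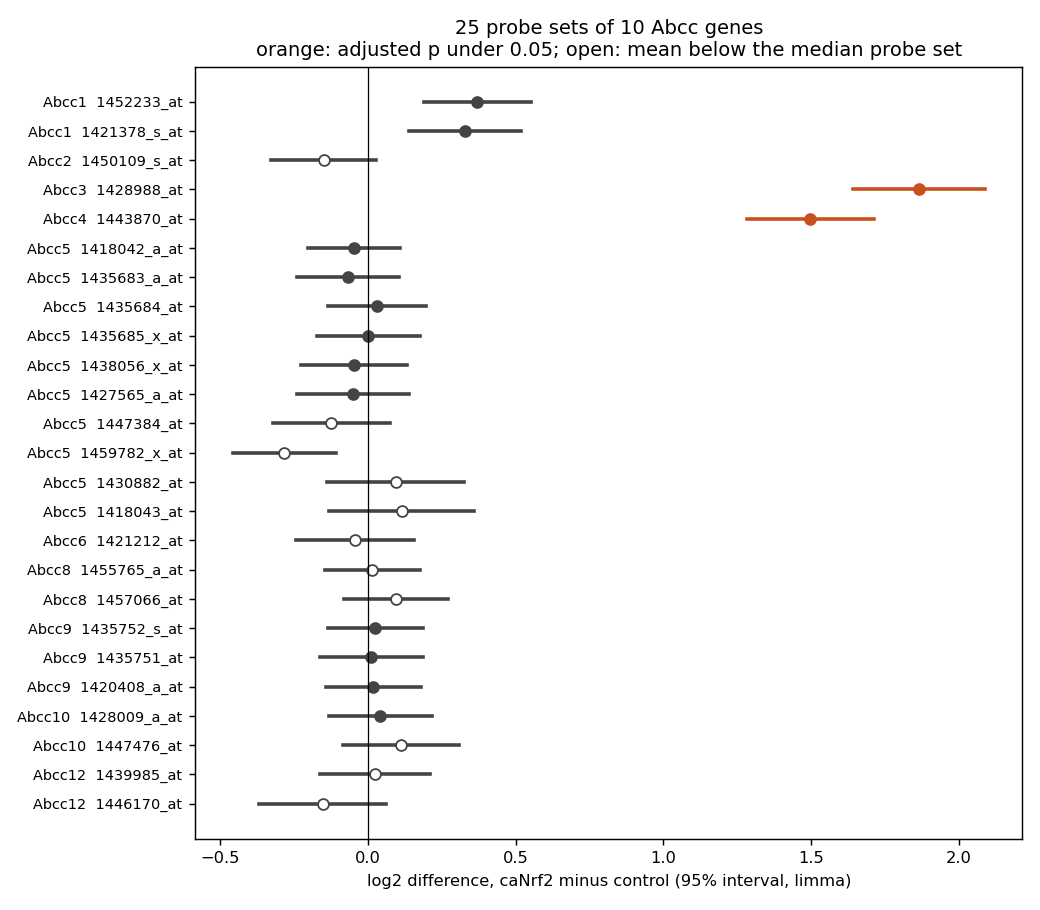
Log2 difference (caNrf2 minus control, horizontal axis) of each of the 25 Abcc probe sets with its 95% interval from the limma fit of all 45037 probe sets. Orange marks the 2 sets with adjusted p under 0.05, Abcc3 at 1.86 and Abcc4 at 1.50, and open points mark the 11 sets whose mean lay below that of the median probe set.

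Over the 25 probe sets, 2 rose and none fell (limma, adjusted over 45037 probe sets, of which 0.226% rose and 0.0133% fell). An unadjusted p under 0.05 was reached by 5 of the 25 and by 8.86% of all probe sets. The 5 were the sets of Abcc3 and Abcc4, both of Abcc1 and 1459782_x_at of Abcc5. Groups without overlap were seen in 4 of the 25 with caNrf2 higher, against 6.9% of all probe sets, and in 1 with caNrf2 lower, against 7.28%. Probe sets of 1 gene share their RNA and arrays and are no replicates. Of the 10 genes, 6 had several probe sets. In 15 pairs formed by the brightest set of a gene with each of its others, 1 pair reached the smallest possible exact permutation p of 0.1, and after adjustment the smallest p was 0.857. Abcc3, Abcc4, Abcc2 and Abcc6 had a single probe set each, so their values have no second reading on the array.

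The other ABC proteins, listed for comparison, showed no called gene. Of 38 listed 36 were measured, with a median log2 difference of -0.02, from -0.29 to 0.48 (limma, where 0.346% of all genes rose and 0.0275% fell). Of the 36, 5 reached an unadjusted p under 0.05, beside 8.09% of all genes. In 3 the groups did not overlap with caNrf2 higher, against 6.23% of all genes, and in 4 with caNrf2 lower, against 6.88%. Differences above 0 were seen in 15 of the 36 and in 8582 of all 18193 genes. Of the 6 genes grouped under efflux in this list 2 lay above 0 and 2 reached an unadjusted p under 0.05. Abcb4, which moves phospholipid into bile, differed by -0.26 ± 0.08 without overlap (SE, adjusted p = 0.358, limma), and the dim Cftr differed by -0.29 ± 0.13 (adjusted p = 0.609, limma). Abcg2, which exports drugs and porphyrins, differed by 0.04 ± 0.07 (SE), also without overlap. Abcb1b differed by 0.09 ± 0.10 and Abcb1a by -0.02 ± 0.09, both at dim levels and with overlap. The smallest p belonged to Abcb6, a porphyrin transporter of organelles, which measured 8.07 ± 0.08 (log2 intensity, mean ± SD, n = 3) in control skin and 8.55 ± 0.20 with caNrf2, without overlap. This difference, 0.48 ± 0.10 (SE), did not pass (adjusted p = 0.129, limma). Among 17 proteins of lipid and sterol transport 5 lay above 0 and none passed (limma; 2 at an unadjusted p under 0.05).

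The enzymes that make the cargo of the conjugate exporters were listed by kind, and the kinds were not tested against each other. Of 21 measured glutathione transferases 10 rose and none fell (limma; 0.346% and 0.0275% of all genes), with a list median of 0.19. The called genes were Gsta3, Gsta4, Gstm1, Gstm6, Gsta2, Gstp1, Gstm3, Mgst2, Gsto1 and Gstm2. Their log2 differences lay between 0.48 for Gstm2 and 5.04 for Gsta3, whose control level was close to background. The probe sets used for Gstm1 and Gsto1 (ending _x_at) and Gstm3 (ending _s_at) are of kinds that can bind other transcripts. The 10 rises may thus not be those of 10 separate genes. Glucuronide synthesis had 7 measured genes of 13 listed and none called (median 0.05; limma; 2 at an unadjusted p under 0.05). Of these 7, the 5 Ugt2b genes lay between percentiles 2.84 and 9.81 of level over all probe sets, a range where a rise may not be seen. No Ugt1a gene was among the 7, so the result does not cover those enzymes. The smallest p was that of Ugdh, which makes the activated glucuronic acid, at 0.21 ± 0.07 (adjusted p = 0.439, limma). Sulfate conjugation had 10 measured genes, a median of 0.00 and none called (limma; 1 at an unadjusted p under 0.05), with the dim Sult1c2 at -0.34 ± 0.09 (adjusted p = 0.315). The glutathione transferases were a list in which risen genes were already known from these arrays, so their count is no independent evidence.

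Uptake carriers and the leukotriene pathway gave no called gene. The 16 carriers of the Slco, Slc22 and Slc51 families, which bring organic anions into or through cells, had a median of -0.06 (limma; 0 called and 0 at an unadjusted p under 0.05), with Slco2b1 at -0.19 ± 0.09 (SE, adjusted p = 0.652). The 8 measured genes of a list for leukotriene synthesis and breakdown had a median of -0.08 and values from -0.16 to 0.05. None was called and 0 reached an unadjusted p under 0.05 (limma). The smallest p there was that of Ggt7 at -0.16 ± 0.08 (adjusted p = 0.643, limma), and Ltc4s, the leukotriene C4 synthase, also differed by -0.16.

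**Figure D3:**
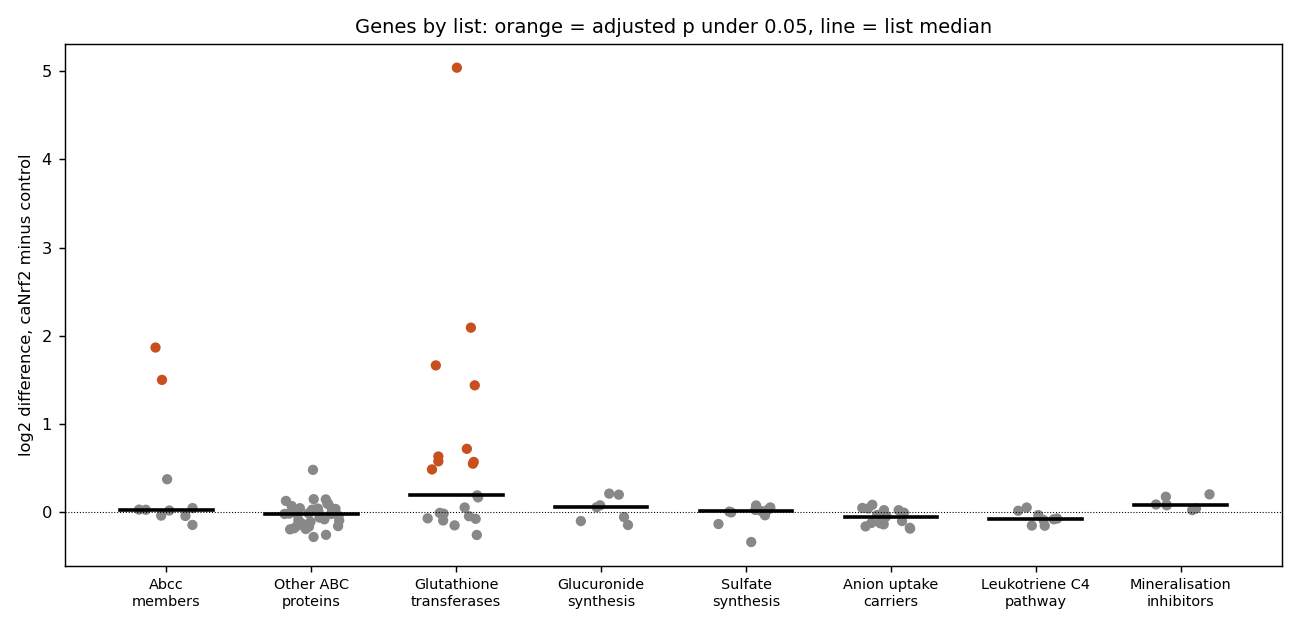
Log2 differences (caNrf2 minus control, vertical axis) of the Abcc members and of the listed gene groups, 1 point per gene, with orange for adjusted p under 0.05 and a line at each median. Called genes appear in 2 columns, the Abcc members with 2 of 10 and the glutathione transferases with 10 of 21.

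Markers of the cell types in skin were set beside the family. Basal keratinocyte markers had a median of 0.05 and suprabasal ones 0.03, and none of the 8 measured of each passed (limma; 0 at an unadjusted p under 0.05 in either). Their summed level (log2) was 15.21 to 15.24 on control and 15.22 to 15.30 on caNrf2 arrays for the basal list, and 16.47 to 16.51 and 16.49 to 16.55 for the suprabasal list. The list medians of endothelium (-0.07), hair follicle (-0.07), melanocytes (-0.02), dermal fibroblasts (0.00), adipocytes (-0.10), skeletal muscle (0.02), macrophages and mast cells (-0.02) and nerve and Schwann cells (-0.02) were small too, with no called gene (limma; 1 gene at an unadjusted p under 0.05 each for endothelium and adipocytes, 0 for the others). The marker of smallest p in each of these lists was Itga6 (basal, 0.12), Dsg1a (suprabasal, 0.11), Cdh5 (endothelium, -0.17), Shh (hair follicle, -0.13), Mlana (melanocytes, -0.20), Pdgfra (fibroblasts, -0.12), Pck1 (adipocytes, -0.55), Atp2a1 (muscle, 0.14), Cma1 (mast cells, -0.13) and S100b (nerve, 0.13). Pck1 came nearest to the threshold (adjusted p = 0.0666, limma). In the sebaceous gland list, with a median of -0.15, 1 of 6 measured genes fell (limma; 0.0275% of all genes), the desaturase Scd3 (-0.81 ± 0.13, adjusted p = 0.0294). An unadjusted p under 0.05 was reached by 2 of the 6, the second being Plin2, which coats lipid droplets, at -0.30 ± 0.10 and also without overlap. Another 2 of the 6 lay above 0, at 0.03 and 0.01. The summed level of this list was 13.47 to 13.59 on control and 13.31 to 13.43 on caNrf2 arrays, without overlap. The part of these shifts in the values of the transporters was not tested.

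The genes with profiles most like those of Abcc3 and Abcc4 were found by Euclidean distance over the 6 arrays, each profile taken as log2 intensity minus the control mean, among 11752 genes at or above the median level. For Abcc3 they were Gstm1 (distance 0.44), Gsta4 (0.55) and Cbr3 (0.57). For Abcc4 they were Cbr3 (distance 0.28), Gstm1 (0.32) and Osgin1 (0.62). Gstm1 and Gsta4 are glutathione transferases, Cbr3 is a carbonyl reductase and Osgin1 is a growth inhibitor induced by oxidative stress. All 4 rose in the same fit, by 1.66, 2.09, 1.57 and 1.21 (log2) in that order. Relative to its control mean, Abcc3 was higher by 1.73, 2.05 and 1.81 on caNrf2 arrays 1 to 3. Abcc4 was higher by 1.62, 1.59 and 1.28, and Abcc1 by 0.38, 0.47 and 0.26. The distance mostly measures the size of the rise, since all these genes are near 0 on the control arrays.

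**Figure D4:**
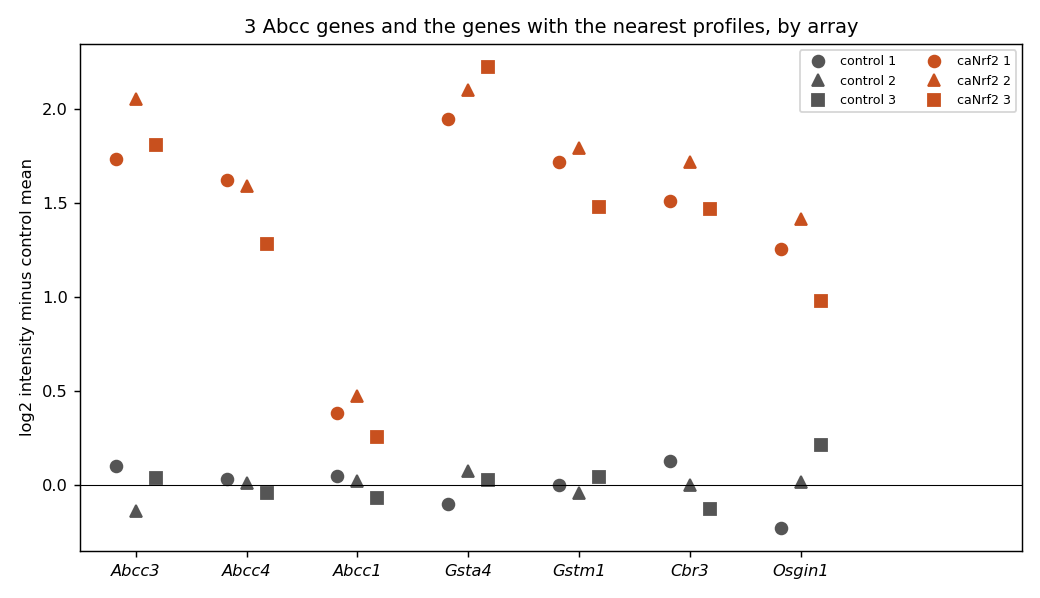
Log2 intensity minus the control mean (vertical axis) on each of the 6 arrays for Abcc3, Abcc4 and Abcc1 and for the genes named by distance, with control arrays in grey and caNrf2 arrays in orange and a symbol for each array number. Abcc3 lies between 1.73 and 2.05 on the caNrf2 arrays, Abcc4 between 1.28 and 1.62 and Abcc1 between 0.26 and 0.47.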

How the data were processed

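Whole back skin RNA of 6 mice was hybridised to 1 Affymetrix array each. The authors deposited 1 linear intensity per probe set and array, made with RMA per the submitters' processing notes. RMA subtracts background, equalises array distributions and summarises probes, so a shift shared by most genes is not seen. Its version is not given in the sources used here. Scanner files were not used here. The number of arrays limits the precision.

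Intensities were converted to log2 and 64 array controls left out. Of 45037 probe sets 34945 had 1 gene symbol, 932 several and 9160 none. Gene identifiers of 34741 were found in a RefSeq table, which changed 0 symbols. Each gene used its probe set of highest mean, and a second fit used every probe set. Both fits compared caNrf2 with control by limma 3.58.1 under R 4.3.3 (4 residual degrees of freedom, no block), with Benjamini-Hochberg adjustment over all features and a threshold of 0.05. Folds are caNrf2 over control. Single contrasts used exact two-sided permutation tests. The fit was tested on simulated data.

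Members, lists and the naming rule were chosen with earlier results of these data known. Named were all members, of each list the called genes or the gene of smallest p, and 3 genes nearest to each called member. Further genes (Abcg2, Abcb1a, Abcb1b, Kcnj8, Ltc4s, Krt5, Krt14, Krt10 and Nfe2l2) were named for their role. Abcb4, Cftr and Plin2 were named with their values seen, each having an unadjusted p under 0.05 (limma). Replicate numbers were not taken as pairs of mice in the main fits. The deviations of same-numbered arrays correlated at -0.20, -0.03 and 0.04, and those of differently numbered arrays at -0.16 to 0.19. With 3 arrays per group these values cannot show if the mice were paired. Alternatives were a replicate block, median centring, quantile and cyclic loess normalisation, an offset of 16, a filter on low values, an intensity trend, robust eBayes, array weights, other choices of probe set and leaving out each array.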

Additional observations from a re-analysis of the deposited data

How the results depend on the processing

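Abcc3 and Abcc4 were called under all 17 alternatives, with log2 differences from 1.66 to 1.93 and from 1.41 to 1.60. The filter on low values used the mean of all 6 arrays. Abcc3 had a control mean of 6.16, below the cut of 6.34, and passed through its caNrf2 arrays. Its call under that filter is therefore no separate evidence. With the replicate block 2 Abcc genes and 2 Abcc probe sets were called, 61 genes in all and 97 probe sets. An intensity trend called 3 Abcc genes. Leaving out each array in turn gave 2 Abcc genes throughout and 41 to 89 genes in all (64 to 136 probe sets). Without control replicate 1, 2 or 3 the genes called were 41, 43 and 45 and the probe sets 69, 64 and 67. Without caNrf2 replicate 1, 2 or 3 the genes called were 89, 48 and 60. All these fits had fewer arrays than the main fit, and why their counts differ was not tested. The called falls, 5 genes and 6 probe sets, ranged from 1 to 18 and from 1 to 25. Signs turned for uncalled differences alone, between -0.05 and 0.11 as reported, and the cause was not tested. With quantile normalisation the Abcc9 sets gave -0.0140, -0.0229 and -0.0113 and 1435685_x_at of Abcc5 -0.0252; with cyclic loess -0.0065, -0.0150, -0.0002 and -0.0167. Array weights gave Abcc12 -0.0139 (-0.0064 among all probe sets), and the mean of its probe sets -0.0651. Over single arrays left out, Abcc6 ranged from -0.1115 to 0.0084, Abcc8 from -0.0213 to 0.0331, Abcc9 from -0.0021 to 0.0437, Abcc10 from -0.0073 to 0.0733 and Abcc12 from -0.0527 to 0.0757. The other Abcc9 sets ranged from -0.0313 to 0.0449 and from -0.0117 to 0.0503, and 5 Abcc5 sets from -0.0003 to 0.1992, -0.1159 to 0.0104, -0.0096 to 0.0753, -0.0436 to 0.0415 and -0.0859 to 0.0134. Dim signal limits Abcc2, Abcc6, Abcc8 and Abcc12, whose means lay below the median probe set. The quantile and loess settings put the median over all genes at -0.02 and -0.01.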

Other observations

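The genes next to each member along the chromosomes of assembly GRCm38.p6, 3 measured genes on either side, did not pass the threshold. These were 58 genes in all, Abcc6 and Abcc8 among them as near neighbours of each other. The 58 had log2 differences from -0.30 to 0.30 (limma, 0 called, where 0.346% of all genes rose and 0.0275% fell). Of the 58, 4 reached an unadjusted p under 0.05, beside 8.09% of all genes. The 6 neighbours of Abcc3 differed by -0.12 to 0.03 and those of Abcc4 by -0.03 to 0.10. The 6 neighbours of Abcc1 differed by 0.00 to 0.20. Of the 4 with a small unadjusted p, Ush1c beside Abcc8 differed by 0.30 ± 0.08 (SE, adjusted p = 0.26, limma) and Map6d1 near Abcc5 by -0.30 ± 0.09 (adjusted p = 0.341, limma). Cmas near Abcc9 differed by 0.17 and BC040756 beside Abcc10 by -0.20. These 4 were named after their values were seen.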
